A study of Mus musculus with 2 samples.

Results

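The genes described here encode matrix proteins of enamel, dentin and bone, together with a transcription factor of bone-forming cells. The list has 10 genes in 3 classes: the ameloblast genes Amelx, Ambn and Enam, the odontoblast genes Dspp and Dmp1, and the osteoblast genes Ibsp, Spp1, Bglap, Sp7 and Mepe. Members were taken as every probe set whose platform annotation names exactly 1 gene that is on the list. This gave 13 probe sets of 8 genes, out of 18193 genes with such a probe set on the array. No probe set was matched to Spp1 or Bglap by this rule, and they are not analysed here. The list was selected on what these genes make, with the signals and differences of several of them on these same arrays already known. Their levels and differences are therefore given as a description, with no test.

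The RNA came from tissue labelled as cerebral cortex of E17.5 mouse embryos whose genetic background was C57BL/6 and 129. One group was wild type, Sox11(+/+), and the other was Sox11-/-, a littermate from a cross of heterozygous parents that lacked the SoxC transcription factor gene Sox11. Each group was 1 embryo on 1 Affymetrix array, so each value below stands for a single library and no variance between embryos can be given. The comparison asks which genes differ between the 2 libraries, from tissue labelled as cortex with and without Sox11. The deposited values are signal intensities on a linear scale, with an array median of 177.5 for wild type and 177.4 for Sox11-/-. Differences are log2 signal of Sox11-/- minus log2 signal of wild type, after a shift of 0.020 that sets the median difference of 12390 measured genes to 0. A gene is called measured when its brightest probe set reached the array median on at least 1 array. Fixed sizes of 1.5-fold (0.585 on the log2 scale) and 2-fold are used to count genes, since no p-value can be had from 1 library per group.

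Enamel is laid down by ameloblasts, epithelial cells that secrete amelogenin, ameloblastin and enamelin and then degrade this matrix as mineral replaces it. Dentin and bone are laid down by mesenchymal cells, the odontoblasts and osteoblasts, on a scaffold of type I collagen. Dspp, Dmp1, Ibsp, Mepe and Spp1 belong to the SIBLING family of acidic, phosphorylated glycoproteins that bind mineral, and Ambn and Enam belong with them to the wider family of secretory calcium-binding phosphoproteins. None of these genes is known as a marker of cortical neurons. Teeth and skull bones lie close to the brain in the embryonic head.

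The members share features that the choice of genes did not use. In the RefSeq gene table of GRCm38.p6, 7 of the 10 lie on chromosome 5, where Ambn neighbours Enam and where Dspp, Dmp1, Ibsp, Mepe and Spp1 follow each other among the protein-coding genes. Amelx lies on chromosome X, Bglap on chromosome 3 and Sp7 on chromosome 15. The RefSeq promoter table of the same build held 7 windows for 6 of the 8 genes with a probe set, namely Amelx, Ambn, Enam, Dmp1 (with 2 start sites), Ibsp and Mepe. The 250 bases before each start site were searched on both strands for the CCAAT box, a common promoter element (CCAAT or ATTGG). It was in all 7 windows, against 33.8% of all 32851 promoter windows of that length. A longer form, CCAATCA or TGATTGG, which contains the shorter one and was chosen after these sequences were read, was in 6 of the 7 windows and in every one of the 6 genes, against 7.23% of all windows. These counts describe the letters and do not show that a factor binds. The 110 bases before each start site are printed to show this shared element, 5′ to 3′ on the strand of the gene, with each CCAAT or ATTGG in capitals.

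Amelx, chrX:169187210-169187319, minus strand: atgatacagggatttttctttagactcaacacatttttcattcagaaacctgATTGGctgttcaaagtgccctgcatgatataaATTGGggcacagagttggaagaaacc
Ambn, chr5:88455881-88455990, plus strand: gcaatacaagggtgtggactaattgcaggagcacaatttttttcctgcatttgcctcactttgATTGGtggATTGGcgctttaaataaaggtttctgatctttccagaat
Enam, chr5:88487865-88487974, plus strand: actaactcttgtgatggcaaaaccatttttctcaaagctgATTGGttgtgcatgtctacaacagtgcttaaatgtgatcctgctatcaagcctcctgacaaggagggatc
Dmp1, chr5:104197465-104197574, plus strand: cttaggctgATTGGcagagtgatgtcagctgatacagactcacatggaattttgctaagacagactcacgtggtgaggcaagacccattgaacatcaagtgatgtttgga
Dmp1, chr5:104202507-104202616, plus strand: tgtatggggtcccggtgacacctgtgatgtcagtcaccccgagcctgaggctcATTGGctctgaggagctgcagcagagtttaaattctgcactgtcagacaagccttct
Ibsp, chr5:104299177-104299286, plus strand: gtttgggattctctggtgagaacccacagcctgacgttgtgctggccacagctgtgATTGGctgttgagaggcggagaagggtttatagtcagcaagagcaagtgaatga
Mepe, chr5:104325219-104325328, plus strand: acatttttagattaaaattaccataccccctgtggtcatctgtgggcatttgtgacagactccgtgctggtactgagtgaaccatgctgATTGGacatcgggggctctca

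In all 7 stretches the element reads ATTGG on the strand of the gene. Its first base lay at -70 in Enam, -54 in Ibsp, -21 in Mepe, and -101 and -57 at the Dmp1 sites, counted with -1 as the last base before the start site. Amelx held it at -58 and -26, and Ambn at -47 and -39. Amelx and Ibsp also held a TATA box (TATAAA or TTTATA) close to the start site, at -31 and -28, and Enam and Mepe held the same letters farther upstream. The TATA letters were in 4 of the 7 windows, against 12.4% of all windows. The core of the motif of RUNX factors, which direct bone formation (ACCACA or TGTGGT), was in the windows of Dmp1 and Mepe, 2 of 7 against 14.0% of all. The core letters read by SOX factors (ACAAT or ATTGT, which cannot be the same bases as a CCAAT box) were in 3 of 7, those of Ambn, Dmp1 and Ibsp, against 27.7%. The genes with the shared TGATTGG include members that were lower and members that were higher in the Sox11-/- library.

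Before the members' values, the libraries themselves were checked. Sox11 was lower in the Sox11-/- library with each of its 6 probe sets, by log2 differences between -2.59 and -1.04, and all 6 stayed above the 25th percentile of the array. Its brightest probe set read 6582 in wild type and 3149 in Sox11-/-, above the median of both arrays. What the remaining signal reads was not tested. The libraries differed in sex-linked RNA, with Xist at 17505 in wild type and 155 in Sox11-/-, and the Y-linked genes Uty (21.8 and 617) and Kdm5d (14.6 and 446) the other way round. The ratio of 3' to 5' signal was 1.78 and 1.16 for beta-actin and 0.922 and 0.816 for Gapdh, in wild type and Sox11-/-. Of 14 cortical neuron genes with a probe set, 13 were measured, among them Neurod6 and Tbr1. Of 14 skeletal muscle genes, all 14 were measured in these libraries as well.

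Of the 8 genes with a probe set, 5 had a negative and 3 a positive difference. At least 1.5-fold lower in Sox11-/- were 3, namely Amelx, Ambn and Dspp, and none was 1.5-fold higher. Over all 18193 genes, the share 1.5-fold lower was 4.43% and the share 1.5-fold higher was 3.94%. None of the 8 members was beyond 2-fold, a size that 1.18% of all genes reached downward and 0.874% upward. Because earlier results on these arrays were known when the list was drawn up, nothing is read from the member count against this background. Measured were 6 of the 8 genes, and Enam and Mepe stayed below the median on both arrays.

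**Figure D1:**
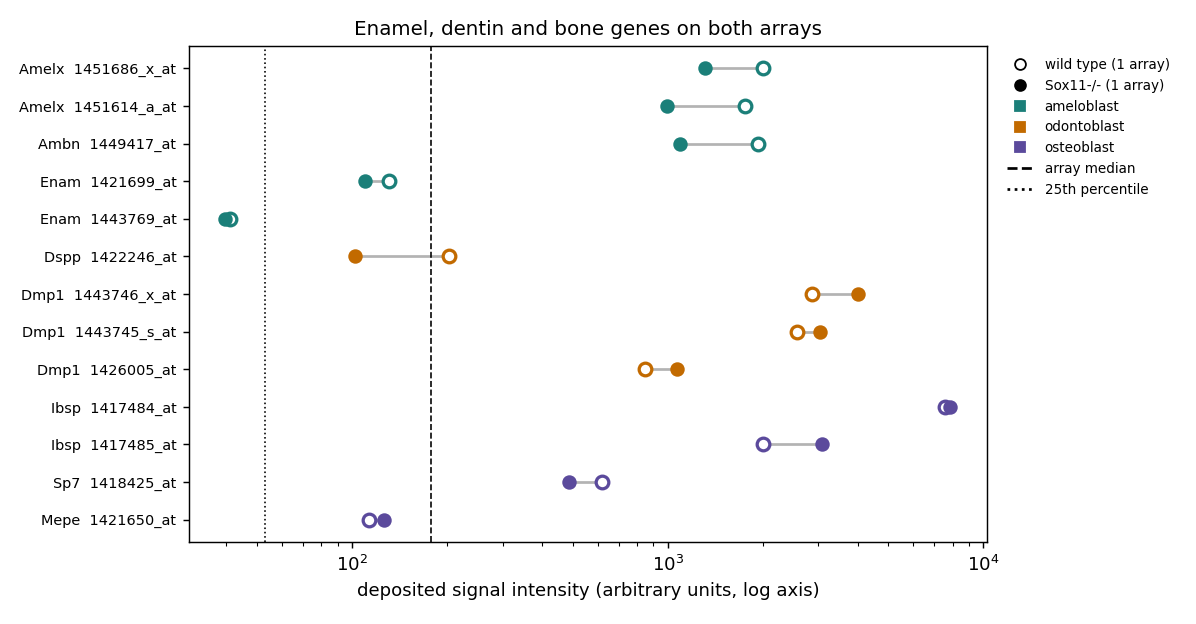
Signal intensity of the 13 member probe sets on a log axis, with wild type as open and Sox11-/- as filled circles (1 array each), coloured by class. The dashed line is the wild-type array median (177.5) and the dotted line its 25th percentile (52.9). Amelx and Ambn lie to the left in Sox11-/-, Dmp1 lies to the right, and Enam and Mepe sit below the median.

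Amelx and Ambn, the ameloblast members bright enough to be measured, were lower in the Sox11-/- library. Amelx encodes amelogenin, the main protein of forming enamel. Its brighter probe set, 1451686_x_at, read 2009 in wild type and 1315 in Sox11-/-. The other, 1451614_a_at, read 1758 and 998. Both probe sets were higher in wild type, with log2 differences of -0.59 and -0.80, so the gene lay just at or past the 1.5-fold size depending on the probe set. The suffix _x_at marks a probe set with probes that can match other sequences, and _a_at one that reads several transcripts of the same gene.

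Ambn encodes ameloblastin, a matrix protein that ameloblasts adhere to. Its only probe set, 1449417_at, read 1937 in wild type and 1095 in Sox11-/-, a log2 difference of -0.80 and 1.75-fold lower. No second probe set checks this value. Measured genes were put in 3 equal groups by level, of 4130 genes each. In the brightest group, 0.702% had a difference as negative as that of Ambn and 1.38% one as negative as that of Amelx, and the central 95% of differences ran from -0.46 to 0.45. Because several differences were known when the list was drawn up, nothing is read from these shares.

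Enam encodes enamelin, the largest and scarcest of these enamel proteins. Its brighter probe set, 1421699_at, read 131 in wild type and 110 in Sox11-/-, below the median of both arrays. The difference of -0.24 has the sign of Amelx and Ambn but is small for a signal this low. The other probe set, 1443769_at, read 41.1 and 39.7, under the 25th percentile of both arrays (52.9 and 52.5), and gives no order. The median difference of the 3 ameloblast genes, with the unmeasured Enam included, was -0.59, which is the value of the brighter Amelx probe set.

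Amelx is the only member on chromosome X, and the libraries differed in Xist. Over 406 measured X-linked genes the median difference was -0.0012, and 15 of them (3.69%) were at least 1.5-fold lower, against 3.24% of all measured genes. The part of sex in the Amelx difference was not tested. The libraries differed in both sex-linked RNA and genotype, so the parts of sex and genotype cannot be told apart for any member.

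**Figure D2:**
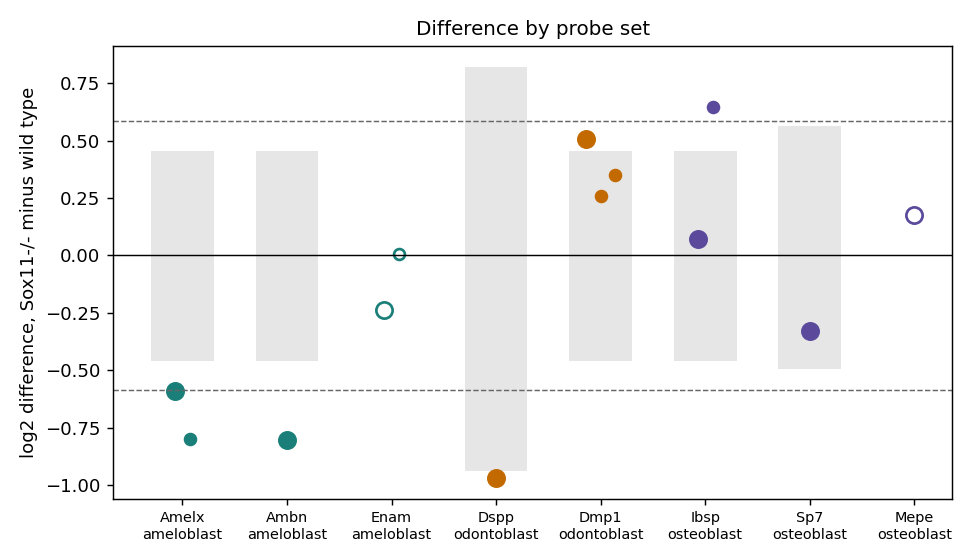
Log2 difference of each member probe set (Sox11-/- minus wild type, 1 array each), with the brightest probe set of a gene as the larger circle, open circles below the array median, dashed lines at 1.5-fold, and grey bars for the central 95% of measured genes in the same of 3 groups by level. Both Amelx probe sets, Ambn and Dspp lie below their grey bar. The brightest Dmp1 probe set and the dimmer Ibsp probe set lie above theirs, and the 3 Dmp1 probe sets lie above 0. Members were chosen with earlier results known, so their places against the bars are a description only.

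Of the odontoblast genes, Dspp was lower and Dmp1 higher in Sox11-/-, but no contrast is read from this because of how Dspp was admitted. Dspp encodes the precursor that is cleaved into dentin sialoprotein and dentin phosphoprotein. Its only probe set, 1422246_at, read 202 in wild type and 102 in Sox11-/-, a log2 difference of -0.97 (1.96-fold lower) and the largest of any member. Only the wild-type value was above the array median, so Dspp counts as measured through wild type alone, and a gene admitted in that way has to differ in that direction. The dimmest of the 3 groups by level, to which it belongs, had a wide central 95% of differences, from -0.94 to 0.82, and nothing is read from the place of Dspp against it. With values below the array median raised to it, the Dspp difference was -0.17.

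Dmp1 encodes dentin matrix protein, which odontoblasts and osteocytes, the cells embedded in bone, both make. Its probe sets read 2857 in wild type and 3998 in Sox11-/- for 1443746_x_at, 2570 and 3030 for 1443745_s_at, and 849 and 1067 for 1426005_at. All 3 were higher in Sox11-/-, by 0.50, 0.26 and 0.35, and none reached 1.5-fold. The _x_at and _s_at probe sets were drawn from the same sequence record and are not separate checks. Of the brightest group of measured genes, 98.3% had a difference at or below that of the brightest Dmp1 probe set. Nothing is read from this share either, since the list was drawn up with several differences known.

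Dspp and Dmp1 are next to each other in the genome, and within these libraries they differed unequally. Since Dspp was admitted through wild type alone, the gap between them is given only as a description: 1.47 with the brightest Dmp1 probe set, 1.23 to 1.47 over its 3 probe sets, and 0.68 with values below the array median raised to it. The Dmp1 difference exceeded that of Ambn by 1.31 (1.06 to 1.31 over 3 pairs of probe sets) and that of Amelx by 1.10 (0.85 to 1.30 over 6 pairs of probe sets). Probe sets of the same gene had a pooled SD of 0.39 over 5155 genes with several measured probe sets. That SD is between probe sets of the same RNA and does not stand for the spread between embryos.

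The osteoblast genes were within 1.5-fold by their brightest probe sets. Ibsp encodes bone sialoprotein, which is found in newly mineralising bone. Its brighter probe set, 1417484_at, read 7576 in wild type and 7860 in Sox11-/-, a difference of 0.07. The other, 1417485_at, read 1998 and 3085, a difference of 0.65, which is past 1.5-fold. Both were higher in Sox11-/-, but they disagreed by 0.57 on the size although they were drawn from the same sequence record. The libraries also differed in the 3' to 5' ratio of beta-actin given above, and whether that has a part in the disagreement was not tested.

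Sp7 encodes osterix, a zinc finger transcription factor without which osteoblasts do not mature. It is the only member that is not a matrix gene. Its probe set, 1418425_at, read 618 in wild type and 486 in Sox11-/-, a difference of -0.33, within the central 95% of the middle group of measured genes (-0.49 to 0.57). Mepe encodes a phosphoglycoprotein of osteocytes and odontoblasts that takes part in phosphate handling. Its probe set, 1421650_at, read 113 and 126, below the median of both arrays, with a difference of 0.18. The 3 osteoblast genes, with the unmeasured Mepe included, had a median difference of 0.07, which is the value of the brighter Ibsp probe set. The Ibsp difference exceeded that of Sp7 by 0.40 to 0.98 over 2 pairs of probe sets.

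Whether the differences divide by class cannot be read from so few genes. Amelx and Ambn were lower with all 3 of their probe sets, and Dmp1 and Ibsp were higher with all 5 of theirs. These probe sets read the same 2 libraries, so their number adds no replicates. By its brighter probe set, Ibsp was only 0.07 higher. The odontoblast gene Dspp (-0.97) and the osteoblast gene Sp7 (-0.33), however, had the sign of the ameloblast genes. The Ibsp difference exceeded that of Ambn by 0.88 to 1.45 over 2 pairs of probe sets and that of Amelx by 0.66 to 1.44 over 4 pairs. These are gaps within the same 2 libraries, and a gap shows unequal differences, not that either gene kept its level. In bulk RNA, fewer cells of a kind, less RNA per cell and unequal tissue from outside the cortex cannot be told apart. This holds for every member.

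**Figure D3:**
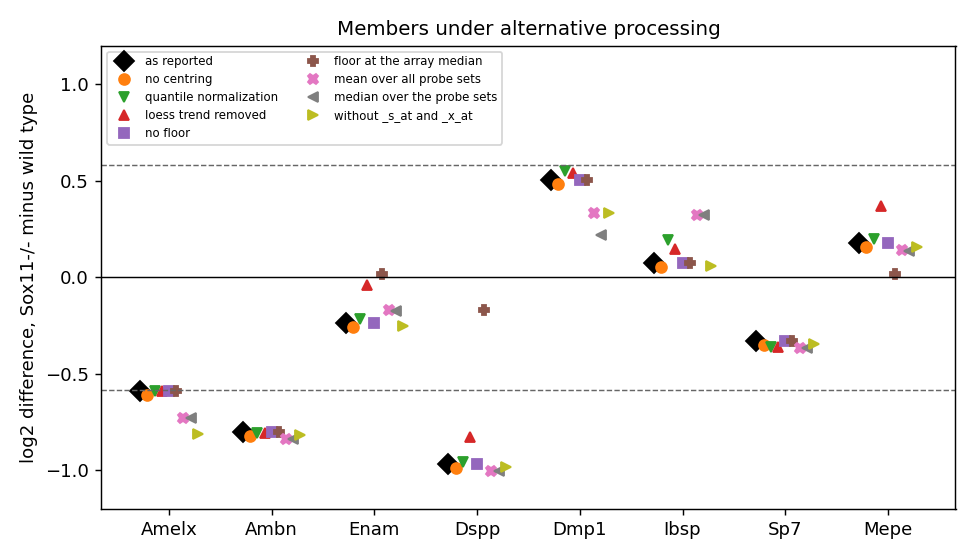
Log2 difference of the 8 members (Sox11-/- minus wild type) as reported and under 8 other ways of processing, with dashed lines at 1.5-fold. Amelx and Ambn stay below 0 in all of them, Dmp1 and Ibsp stay above 0, and Dspp moves to -0.17 with the floor at the array median.

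Other genes of the same tissues were taken from lists drawn up for each cell class, again with earlier results known. Of 18 other enamel organ genes, 13 had a probe set and 6 were measured. Of these, 5 were within 1.5-fold and 1 was lower, against 3.24% of all measured genes lower and 3.07% higher, with a median of -0.08. The brightest were Odam, a protein of maturing enamel, at 460 in wild type and 451 in Sox11-/- (-0.01), and the tuftelin gene Tuft1 at 362 and 385 (0.11). The lower gene was Stim1, a calcium sensor used by many cell types (505 and 272, -0.87), but its other probe set gave 0.22. The enamel proteases Mmp20 (57.4 and 42.4) and Klk4 (29.2 and 122) were below the median on both arrays. Amelotin (Amtn), the nearest protein-coding gene before Ambn, read 205 and 202 (0.00). The measured genes other than Stim1 (Odam, Tuft1, Sp6, Fam83h and Amtn) had differences between -0.25 and 0.11.

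Of 17 other odontoblast and dental mesenchyme genes with a probe set, 15 were measured and 14 were within 1.5-fold. Over all measured genes, 3.24% were 1.5-fold lower and 3.07% higher. The median difference of the list was 0.00. The type I collagen gene Col1a1 read 14025 and 16073 (0.22, and -0.14 with its other probe set). The transcription factor gene Klf4 read 1865 and 1508 (-0.29, and 0.42 with its other probe set). The homeobox gene Barx1, which marks molar mesenchyme, was higher (186 and 278, 0.60), and Pax9 (151 and 223, 0.58) lay just inside 1.5-fold. Pax9 reached the array median in Sox11-/- alone, so it had to be higher there, and nothing is read from its direction. Many genes of this list, such as Dlx1, Dlx2, Lhx6 and Nes, are also made in embryonic brain, so the list does not read teeth alone.

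Of 24 other bone genes with a probe set, 21 were measured. All 21 were within 1.5-fold, a count near the background of 3.24% lower and 3.07% higher over all measured genes, with a median of 0.04 and differences from -0.35 to 0.30. The collagen gene Col1a2 read 28003 in wild type and 26213 in Sox11-/- (-0.08, and up to 0.23 with its other probe sets). Sparc, which encodes osteonectin, read 20245 and 17217 (-0.21, and up to 0.31 with its other probe sets), so neither Col1a2 nor Sparc has a settled sign. Fibroblasts and vessels make both of these as well. Genes of narrower use in bone were measured too. Ifitm5, an osteoblast membrane protein, read 1107 and 1348 (0.30), and the phosphate-regulating peptidase gene Phex read 602 and 615 (0.05). Lower in Sox11-/- were the alkaline phosphatase gene Alpl (397 and 337, -0.22), the secretory kinase gene Fam20c (826 and 647, -0.33), the citrate transporter gene Slc13a5 (591 and 473, -0.30) and the collagen gene Col22a1 (622 and 483, -0.35), all within 1.5-fold. Higher, also within 1.5-fold, were Omd (515 and 605, 0.25), Panx3 (667 and 772, 0.23) and Cthrc1 (2805 and 3219, 0.22). Of the 21 measured bone genes, 9 had a negative difference. The osteocyte gene Sost (117 and 128) and the osteoclast-activating ligand gene Tnfsf11 (96.3 and 86.0) stayed below the median on both arrays.

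Markers of cell types found beside bone and teeth were also present. Osteoclasts resorb bone, and 11 of their 14 genes were measured. None was beyond 1.5-fold, against 3.24% of all measured genes lower and 3.07% higher. Ctsk read 4664 and 4326 (-0.09) and Mmp9 read 1965 and 1397 (-0.47, and -0.04 with its other probe set). Acp5 read 1999 and 1345 (-0.55), the most negative of the measured osteoclast genes. Of the 11, 8 had a negative difference. The summed signal of the osteoclast list was 12440 in wild type and 10691 in Sox11-/-. Of 17 measured cartilage genes, 15 were within 1.5-fold, beside the same shares of all measured genes. Matn1 (447 and 236, -0.90) and Ucma (204 and 129, -0.64, and 0.06 with its other probe set) were lower, and the list median was -0.24. Ucma reached the array median in wild type alone, so it had to be lower in Sox11-/-, and nothing is read from its direction. The 2 brightest cartilage genes were Col11a1 (2286 and 2521, 0.16) and Col9a1 (2531 and 2038, -0.29, and 0.26 with its other probe set). The summed cartilage signal was 13001 and 11443. Col10a1, the collagen of hypertrophic cartilage, was below the 25th percentile on both arrays.

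Among these lists, genes of the upper layers of epidermis differed most. Of 11 measured, 9 were 1.5-fold lower and the other 2 within it, against 3.24% of all measured genes lower and 3.07% higher. Among the 9, Ivl (295 and 105) reached the array median in wild type alone, so nothing is read from its direction. With the floor at the array median, 9 were lower as well. The list median was -1.13, with a summed signal of 44710 in wild type and 20117 in Sox11-/-. Krt10 read 10189 and 3229 (-1.64), loricrin (Lor) read 10784 and 6581 (-0.69), the filaggrin gene Flg read 3224 and 836 (-1.93), and Dsc1 read 1130 and 253 (-2.14, with its other probe set at the floor on both arrays). Epidermis and the enamel organ are both ectodermal epithelia, and the enamel genes Amelx and Ambn were lower in the same library. The part of the epidermal signal in the enamel difference was not tested. Skeletal muscle genes had a median of 0.14 and a summed signal of 141604 and 144594, with Acta1 at 23182 and 23519 (0.04), Tnnc2 at 22674 and 22146 (-0.01) and none beyond 1.5-fold. Cortical neuron genes had a median of -0.16 (-0.04 with the mean and -0.02 with the median over the probe sets of each gene), with Tubb3 at 4484 and 5207 (0.24), Dcx at 4403 and 3245 (-0.42, and up to 0.96 with its other probe sets) and none beyond 1.5-fold.

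**Figure D4:**
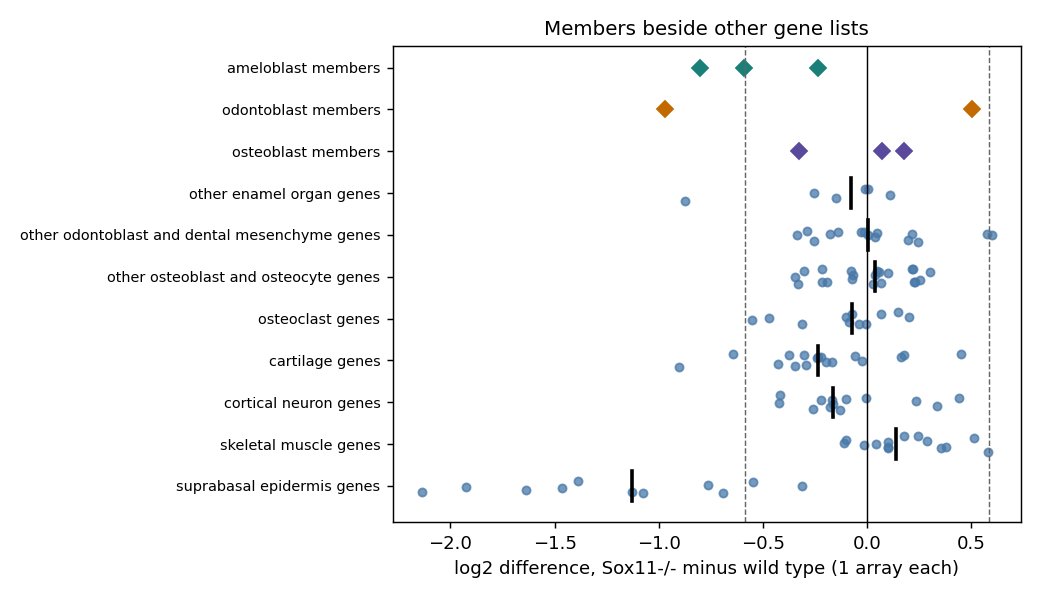
Log2 difference (Sox11-/- minus wild type, 1 array each) of the 8 members as diamonds by class and of the measured genes of 8 other lists as circles, with black bars for list medians and dashed lines at 1.5-fold. The epidermis genes lie to the left (median -1.13), the bone genes all lie inside the dashed lines, and the ameloblast members lie to the left of 0.

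The values of the members' neighbours on chromosome 5 are given beside them. Around Ambn and Enam, Amtn (0.00) and Utp3 (0.07) lay near 0, and the gland secretory gene Smr2 read 2327 and 2438 (0.09). Between Smr2 and Amtn, Prol1, a proline-rich protein gene of glands, read 4196 in wild type and 501 in Sox11-/-, 8.26-fold lower (-3.05). Jchain, the immunoglobulin joining chain gene next to Enam, read 89.7 and 35.2, below the median on both arrays and with the second value under the 25th percentile (-0.75 against that floor), and Smr3a was under it on both. Rufy3 (-0.09) and Grsf1 (-0.12), beyond Utp3, were within 1.5-fold. Around the dentin and bone genes, Sparcl1 on the Dspp side read 4556 and 4645 (0.05), and Nudt9 (-0.01) and Hsd17b11 (-0.02) lay near 0. On the Mepe side, the zinc finger gene Zfp33b was 1.5-fold higher (181 and 289, 0.69), and Thoc2l, Abcg3 and Gbp8 were not measured, nor was Hsd17b13 on the other side.

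**Figure D5:**
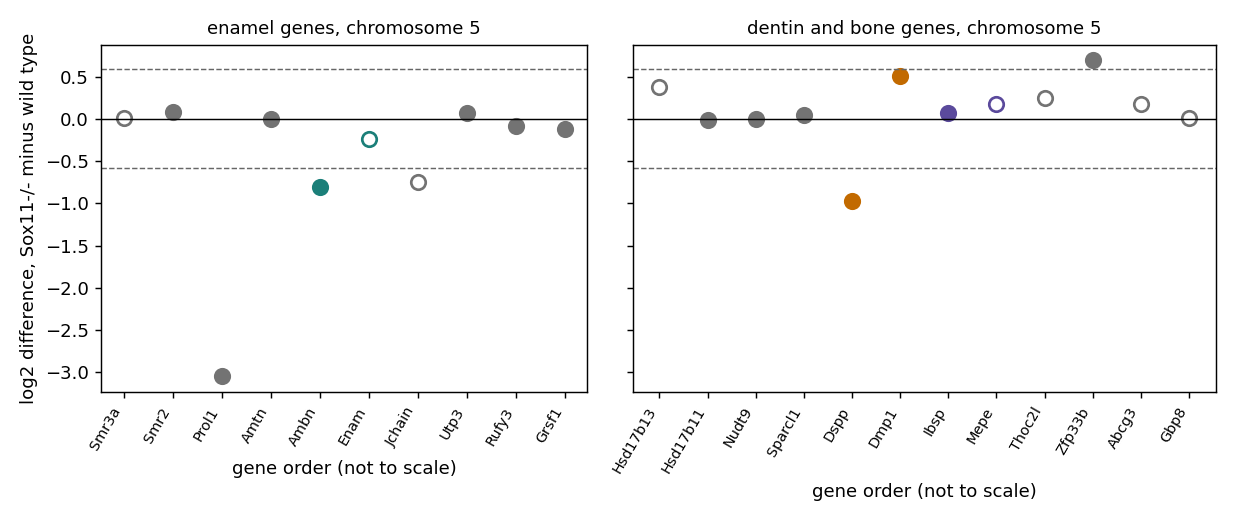
Log2 difference (Sox11-/- minus wild type, 1 array each) of the members on chromosome 5 and the 4 nearest protein-coding genes with a probe set on each side, in gene order and not to distance. Grey circles are other genes, open circles are below the array median, and dashed lines mark 1.5-fold. Prol1 is at -3.05 while Amtn beside it is at 0.00, and Dspp at -0.97 lies beside Dmp1 at 0.50.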

How the data were processed

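RNA of 2 embryos was hybridised to 1 Affymetrix mouse array each. The authors deposited 1 linear signal intensity per probe set and array, made with Affymetrix Expression Console per the submitters' processing notes. Summary algorithm and genome build: not given in the sources used here. Both arrays had a 2% trimmed mean of 500, as a common scaling target gives. Of 45101 probe sets, 64 controls were left out, 34945 name 1 gene, 932 several and 9160 are unnamed here. Symbols of 34741 were updated by gene number through RefSeq genes of GRCm38.p6. Each gene was represented by its brightest probe set (mean log2 over both arrays). Values were taken to log2, Sox11-/- was shifted by 0.020, and values under the 25th percentile (52.9 and 52.5) were raised to it. The functions were tested on simulated data. With 1 array per group no test was run. Named genes are all members, the 2 brightest measured genes of each other list and up to 3 beyond 1.5-fold each way, plus Sox11. Other genes named (the sex-linked genes, the chromosome 5 neighbours and further list genes) were chosen after their values were seen. The members and lists were chosen with earlier results of these data known. Python 3.11.15, pandas 2.3.3, numpy 2.4.6 and statsmodels 0.14.6 were used. The 10 alternatives were other centring, normalization (quantile, or a loess trend removed), floors, probe set choices and filters.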

Additional observations from a re-analysis of the deposited data

How the results depend on the processing

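Over 8 alternatives that bear on single genes, Amelx was between -0.81 and -0.59, Ambn between -0.84 and -0.80, Dmp1 between 0.22 and 0.55, Ibsp between 0.05 and 0.32 and Sp7 between -0.37 and -0.33, each with 1 sign throughout. Enam was between -0.26 and 0.02, and Mepe between 0.02 and 0.37. The median of the bone list was between -0.06 and 0.04 and that of the dental mesenchyme list between -0.04 and 0.05, so neither has a settled sign. That of the enamel organ list was between -0.10 and -0.01, of muscle between 0.08 and 0.24, of cartilage between -0.26 and -0.20 and of epidermis between -1.27 and -1.08. The osteoclast median was between -0.28 and -0.07 and the cortical neuron median between -0.18 and -0.02. Raising all values to at least the array median put Dspp at -0.17 and the odontoblast median at 0.17, since the Dspp signal in Sox11-/- lies under that floor. In that setting 2 members were 1.5-fold lower, against 3 in all others, and none was higher in any. Of all measured genes, 2.13% were 1.5-fold lower with the floor at the median and 1.84% with the filter at the 75th percentile. The share higher was 1.77% with that filter, 4.90% with the mean and 5.64% with the median over probe sets. Small list counts moved. Enamel organ genes had 0 lower with the mean, with the median or without _s_at and _x_at, and 1 higher (Klk4) with no filter. Dental mesenchyme genes had 0 higher with no centring, the mean, the median, without _s_at and _x_at or the 75th percentile filter, and 2 with the loess trend removed. Bone genes had 1 lower and 1 higher with the median. Osteoclast genes had 1 lower with the mean, the median, without _s_at and _x_at or no filter, and 1 higher with the median. Cartilage genes had 1 lower with the loess trend removed, the floor at the median, the mean or without _s_at and _x_at, and 0 with the 75th percentile filter. Cortical neuron genes had 1 lower with the mean or the median. Where no value of a setting shows it, the cause was not tested. No paired analysis was possible because each group is 1 array and the result comes from no test, and for the same reason no library could be left out. Signals near or under the array median (Enam, Mepe, Dspp) limit what can be said of those genes.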
